A study of Homo sapiens with 24 samples.

Results

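The intervals described here are annotated human microRNA loci in a table of small RNA counts from HEK293 cells. A row was taken if its type was miRNA (a mature arm) or precursor_RNA (the hairpin it is cut from) and its name started with MIR. Rows of the let-7 family, of the miR-17-92 and miR-106b-25 clusters and of MIR7108 were left out. This gave 1734 of 175946 rows, 884 of type miRNA and 850 of type precursor_RNA, with 936 distinct names. The rows fell on 883 separate loci, and 741 of these held 2 rows, usually a hairpin and 1 of its arms. For 1340 rows (77.3%) the interval was a RefSeq mature microRNA or hairpin extended by 25 bp on each side, so the arm and hairpin rows of a locus counted largely the same reads and are not separate measurements. A further 1047 MIR rows carry several types at once and are not among the intervals.

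HEK293 is an established line of human embryonic kidney origin, obtained from ATCC and labelled wild type. The groups were cells overexpressing eGFP (GFP, the control), LMNA (lamin A/C), LMNB1 (lamin B1) or LMNB2 (lamin B2), with 3 small RNA and 3 ATAC-seq libraries in each, 24 libraries in all. ATAC-seq counts transposon insertions and reads out open chromatin. The lamins are filament proteins that line the inner nuclear membrane, and all groups, GFP included, carried an overexpressed protein. The labels give neither the vector or promoter that drove it nor whether the replicates were separate cultures, so p-values measure the spread between these libraries, which may be technical. The batch label was 1 for all small RNA and 2 for all ATAC libraries and separates nothing within an assay. The tables list non-coding features, so HEK293 mRNA markers were not checked here. MicroRNAs known from muscle, neurons, blood, smooth muscle and fibroblasts were at or near 0: their 15 intervals summed to 2 to 14 counts per library, and the highest, MIR142 of blood cells, averaged 2.0 counts. The lists for liver and endothelium held no interval, and MIR rows of several types were not checked.

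MicroRNAs are short RNAs that guide Argonaute proteins to messenger RNAs. Most are cut from a hairpin in a longer RNA polymerase II transcript by Drosha in the nucleus and by Dicer in the cytoplasm, and a few, the mirtrons, are made from a spliced intron without Drosha. Target recognition rests mainly on the seed, bases 2 to 8 counted from the 5′ end of the mature strand, so microRNAs with 1 seed form a family. Some annotated microRNAs lie inside small nucleolar RNA, ribosomal RNA or mitochondrial-like sequence, where reads of the surrounding RNA are counted too.

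A RefSeq mature sequence (GRCh38.p14) lay inside 1492 of the 1734 rows and inside 215 of the 239 rows that were tested, which held 189 distinct mature sequences. The sequences below are printed 5′ to 3′ with the seed in capitals. The first set belongs to loci that differed between groups in the small RNA test.
miR-92b-3p: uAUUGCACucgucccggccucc
miR-744-5p: uGCGGGGCuagggcuaacagca
miR-16-5p: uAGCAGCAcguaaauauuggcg
miR-12136: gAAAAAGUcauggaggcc
miR-5088-3p: uCCCUUCUuccugggcccuca
miR-3651: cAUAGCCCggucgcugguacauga
The seed of miR-92b-3p is shared by 6 RefSeq mature microRNAs, among them miR-92a-3p of the miR-17-92 cluster, printed for comparison.
miR-92a-3p: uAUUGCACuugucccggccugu
Among the tested rows, 10 seeds were shared by more than 1 mature sequence, and the families that recur below were these.
miR-15a-5p: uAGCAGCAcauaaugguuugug
miR-15b-5p: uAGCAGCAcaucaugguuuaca
miR-30c-5p: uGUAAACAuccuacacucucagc
miR-30e-5p: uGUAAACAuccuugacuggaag
miR-181b-5p: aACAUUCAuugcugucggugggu
miR-181d-5p: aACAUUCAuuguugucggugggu
MIR98 lies outside the let-7 names but carries the let-7 seed.
miR-98-5p: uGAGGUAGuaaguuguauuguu
The last set belongs to 3 further abundant loci whose values are given below.
miR-615-3p: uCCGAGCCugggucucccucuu
miR-7-5p: uGGAAGACuagugauuuuguuguu
miR-191-5p: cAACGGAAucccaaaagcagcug

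Small RNA totals, in units of 1e6 counts per library, ran from 133 to 195 and ATAC window totals from 156 to 290. The microRNA intervals took a small part of this: their summed level, 1 row per locus, was 306, 313 and 511 CPM (counts per 1e6 counts of the effective library) with eGFP, 326, 363 and 344 with LMNA, 302, 321 and 328 with LMNB1, and 260, 245 and 236 with LMNB2. GFP replicate 3 stood above the other 11 libraries, and the 3 LMNB2 libraries were the lowest. The 1047 MIR rows of several types, which are not among the intervals, held more. Summed over rows rather than loci, they had 593 to 1722 CPM per library. No count in any library was found at 304 of the 883 loci, 120 loci averaged 10 or more counts, 38 averaged 1 CPM or more, and 6 averaged 10 CPM or more. After a filter on low counts 239 rows at 131 loci were tested, among 33893 tested features. At the MIR550 loci reads were counted without regard to strand: MIR550A1 and MIR550A2 held the same counts in all 12 libraries as the MIR550B rows opposite them, with means of 41.0 and 44.1 counts. The other pairs of microRNA rows on opposite strands averaged at most 2.0 counts, too few to show how strand was used.

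The level of the microRNA loci differed between libraries. Relative to the mean of the 12 libraries, the median of the 131 tested loci lay at -0.45, -0.08 and 1.17 on the log2 scale with eGFP, at 0.08, 0.29 and 0.01 with LMNA, at 0.07, 0.01 and 0.21 with LMNB1 and at -0.36, -0.41 and -0.45 in LMNB2. The 3 LMNB2 libraries lay below all LMNA and LMNB1 libraries, while GFP spanned the whole range. GFP replicate 3 was the highest library for 91 of the 131 loci and GFP replicate 1 was as low as LMNB2. Over all 33893 tested features, which the scaling centres near 0, the same medians lay between -0.01 and 0.04. In bulk samples fewer cells of a kind and less RNA per cell cannot be told apart. Because GFP replicate 3 stands apart, the counts of calls and the medians of the lists against GFP are given with it and without it.

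**Figure D1:**
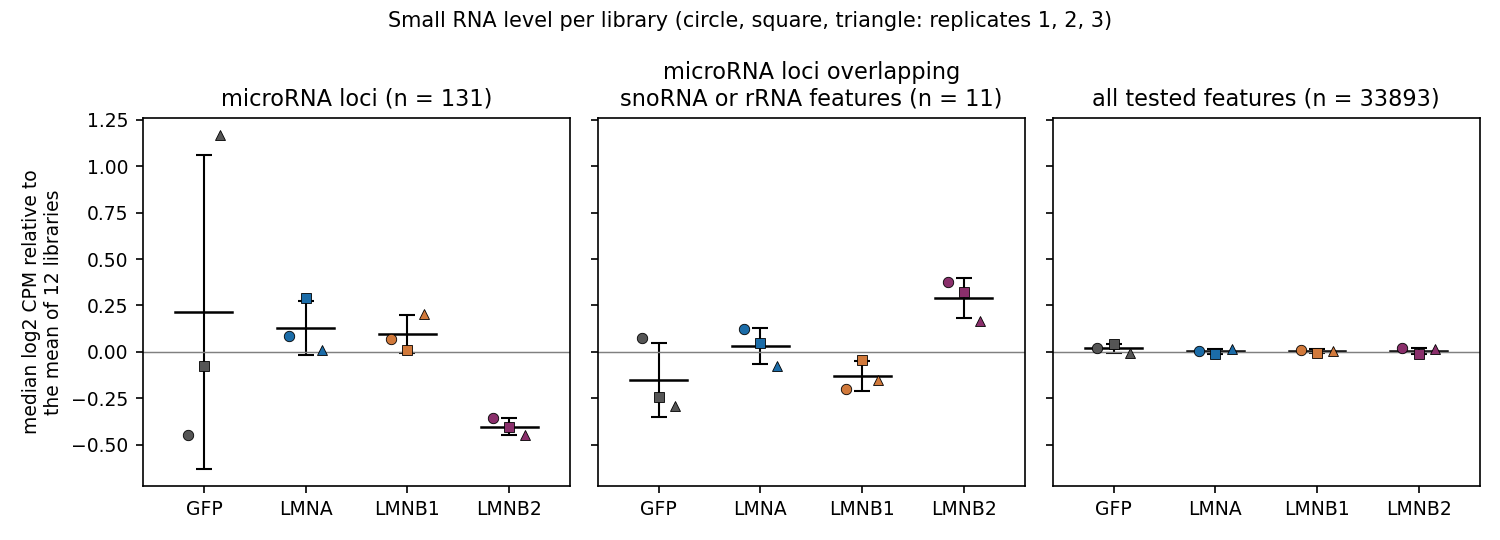
Median log2 CPM of each small RNA library relative to the mean of the 12 libraries, for the 131 tested microRNA loci, the 11 of them that overlap snoRNA or rRNA features, and all 33893 tested features. Points are libraries (circle, square and triangle for replicates 1, 2 and 3) and bars are mean ± SD of the 3 libraries of a group. In the first panel LMNB2 lies below LMNA and LMNB1 and GFP replicate 3 stands at 1.17.

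The levels were concentrated in a few loci: the 5 highest held 60.0% of the summed CPM, the 10 highest 72.4%, and MIR615 alone 21.9%. MIR615 (chr12:54033925-54034070, + strand) lies in the HOXC cluster within the RefSeq genes HOXC4 and HOXC5. Its hairpin row had 79.4, 96.7 and 41.6 CPM with eGFP, 30.5, 89.1 and 102 with LMNA, 76.8, 81.5 and 86.4 with LMNB1, and 55.5, 49.7 and 54.5 with LMNB2. GFP and LMNA libraries spread widely here, over 41.6 to 96.7 and 30.5 to 102 CPM, and no comparison passed the test (LMNB2 against GFP -0.45 ± 0.37 on the log2 scale, SE, adjusted p = 0.53 in edgeR's quasi-likelihood test, adjusted by Benjamini-Hochberg, and -0.68 with 0.36 without GFP replicate 3). MIR615 did not follow the class in GFP replicate 3, where it was the lowest of the GFP libraries. MIR1307 (chr10:103394257-103394406, - strand, in ATP5MK) was next among loci outside other structured RNAs after MIR615 and MIR744, with 13.5, 16.5 and 36.8 CPM in GFP and 14.7, 15.6 and 15.3 in LMNB2.

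Several widely expressed or tissue-patterned microRNAs were high in GFP replicate 3 alone. MIR7-1 (chr9:83969734-83969874, - strand, in HNRNPK), a source of miR-7, had 6.67, 15 and 51.6 CPM with eGFP, 8.65, 14.9 and 8 with LMNA, 15.4, 11 and 13.4 with LMNB1, and 6.44, 8.25 and 6.06 with LMNB2. MIR191 (chr3:49020593-49020733, - strand, in DALRD3), a highly expressed microRNA of many cell types, had 5.88, 11.1 and 31.2 CPM with eGFP, 17.1, 14.2 and 12.5 with LMNA, 12, 11.9 and 14.6 with LMNB1, and 10.1, 9.03 and 8.2 with LMNB2. For MIR191 the LMNB2 libraries were all below those of LMNA and LMNB1, and inside the range of GFP. MIR629, in TLE3, reached 22.7 CPM in GFP replicate 3 and 3.15 to 9.39 in the other libraries. MIR182 and MIR183, of a cluster known from sensory organs, reached 20.4 and 22.2 CPM there, against 2.57 to 7.57 and 2.87 to 7.53 elsewhere. MIR196A2 of the HOXC cluster reached 8.68 CPM there and 1.41 to 3.56 elsewhere. None of these loci passed the test between any pair of groups with all libraries kept. When GFP replicate 3 was dropped, MIR191, MIR629 and MIR196A2 were called lower in LMNB2 than in LMNA (-0.70, -0.91 and -0.83, adjusted p of 0.035, 0.026 and 0.019 by edgeR's test).

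With all 12 libraries, no microRNA row was called in LMNA against GFP at an adjusted p under 0.05 (0.0% of all tested features were), 10 rows had an unadjusted p under 0.05 by edgeR's quasi-likelihood test, and DESeq2 called 0. The median log2 fold change was -0.23 over the 239 rows and -0.05 over all tested features. In LMNB1 against GFP no row was called either (0.0384% of all features were), 7 had an unadjusted p under 0.05, DESeq2 called 0, and the medians were -0.31 and -0.05. With GFP replicate 3 left out both medians turned positive, to 0.38 in LMNA and 0.35 in LMNB1 over 247 tested rows. LMNA then had 14 rows at 8 loci called higher (0.776% of all features, and 0.0665% were called lower), from MIR132, MIR140, MIR181B1, MIR181D, MIR1843, MIR330, MIR425 and MIR576, and LMNB1 had 2, both from MIR576 (0.0942%, and 0.00554% lower). The direction of these contrasts against GFP thus turned on that library. Between LMNB1 and LMNA no row was called (0.0118% of all features were), 2 had an unadjusted p under 0.05, DESeq2 called 0, and the median was -0.05. No row was called without GFP replicate 3 either, 4 had an unadjusted p under 0.05, and the median was -0.06.

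LMNB2 was the group in which microRNA rows were called. Against GFP 12 of 239 rows at 7 loci passed the test, 2 higher and 10 lower, where 2.66% of all features were called in either direction, 1.91% higher and 0.752% lower. The 10 lower rows came from MIR92B, MIR744, MIR505, MIR12136, MIR16-1 and MIR30B, and the 2 higher ones from MIR5088. Both MIR5088 rows passed the count filter only through LMNB2, so a difference was built into these 2 calls. The median was -0.84 against -0.04 over all features, and 203 of 239 rows had a negative fold change (84.9%, against 53.2% of all features). In 44 rows (18.4%) all LMNB2 libraries lay below all GFP libraries, against 10.2% of all features. With scaling by total counts, which moved the median of all features to 0.19, this held in 4 rows (1.67%, against 1.25%), while in 13 rows all LMNB2 libraries lay above all GFP libraries (5.44%, against 15.6%). Without GFP replicate 3 the median was -0.17 and 15 rows were called, 7 higher and 8 lower, of which 8 were among the 12 (3.97% of all features higher, 1.85% lower). The count of 12 (901 of all features) rested on single libraries: 70 rows passed when GFP replicate 1 was left out (1390 of all features). It was 0 when LMNB2 replicate 1, 2 or 3 was left out (170, 51 and 60 of all features). The count was 5 and 6 without LMNA replicates 1 and 2 (534 and 537 of all features). It was 5, 3 and 4 without LMNB1 replicates 1, 2 and 3 (433, 393 and 571). These LMNA and LMNB1 libraries are in neither mean compared, but enter the count filter, the scaling and the shared estimate of spread. Without 1 of them 268 to 280 microRNA rows were tested. The part of each step in the counts was not tested. DESeq2 called 33 rows, 6 higher and 27 lower, and 953 of all features.

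The contrasts of LMNB2 with the other lamins do not use the GFP libraries in their means. Against LMNA 6 rows at 3 loci were called, 2 higher (MIR5088) and 4 lower (MIR92B and MIR505), with 2.01% of all features called, 1.74% higher and 0.268% lower. With the replicate number as a block, 4 rows were called against LMNA (566 of all features), 2 higher and 2 lower. The call of MIR505 was lost. Against LMNB1 5 rows were called, 3 higher (MIR5088 and MIR3651) and 2 lower (MIR92B), with 1.82% higher and 0.366% lower over all features (2.19% in either direction). The medians were -0.54 and -0.50, against -0.01 and -0.01 over all features, and 211 and 205 of 239 rows were lower, where 50.6% and 50.8% of all features were. All LMNB2 libraries lay below all LMNA libraries in 120 rows (50.2%, against 13.5% of all features) and below all LMNB1 libraries in 138 rows (57.7%, against 14.1%), while they lay above LMNA in 14 rows (5.86%, against 14.6%). The 2 contrasts share the LMNB2 libraries and are not independent of each other. In the joint test of the 4 groups 4 rows were called (1.68% of all features), the rows of MIR92B and MIR5088. That count was 29 and 77 without GFP replicates 1 and 3, 2 without LMNA replicate 1, and 0 without any other lamin library. The matching counts over all features are not given, so these changes in the count are not a result about the microRNA rows. In all these contrasts the MIR5088 rows were tested only because they passed the count filter through LMNB2, where they were high.

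Without GFP replicate 3 more rows passed these tests: 59 rows at 34 loci were called against LMNA, 6 higher and 53 lower (3.26% and 2.41% of all features), and 58 rows at 36 loci against LMNB1, 12 higher and 46 lower (3.63% and 2.37%). They included all 6 and all 5 rows called with that library. In a fit of only the 6 libraries compared, 72 rows were called against LMNA (6 higher, 66 lower, with 5.17% and 5.28% of all features) and 112 against LMNB1 (13 higher, 99 lower, with 8.47% and 7.04%). Against LMNA the count was 11 without GFP replicate 1 (801 of all features) and 2 without GFP replicate 2 (570). It was 2, 0 and 0 without LMNA replicates 1, 2 and 3 (119, 221 and 176 of all features). It was 3, 2 and 2 without those of LMNB1 (365, 357 and 351 of all features). Without those of LMNB2 it was 2, 0 and 0 (191, 35 and 89 of all features). Against LMNB1 the count was 11 without GFP replicate 1 (841 of all features) and 4 without GFP replicate 2 (753). It was 1, 0 and 1 without LMNA replicates 1, 2 and 3 (484, 518 and 613 of all features). Without any 1 library of LMNB1 or LMNB2 it was 0. All features then had 168, 163 and 147 calls without LMNB1 replicates 1, 2 and 3, and 215, 166 and 144 without those of LMNB2. Scaling by total counts gave no call in either contrast, where 314 and 61 of all features were called. It moved the median of all features to 0.20 and 0.06. Relative to all features the microRNA median under that scaling was -0.55 against LMNA and -0.49 against LMNB1. With that scaling all LMNB2 libraries lay below all LMNA libraries in 62 rows (25.9%, against 4.69% of all features) and below all LMNB1 libraries in 114 (47.7%, against 10.7%).

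**Figure D2:**
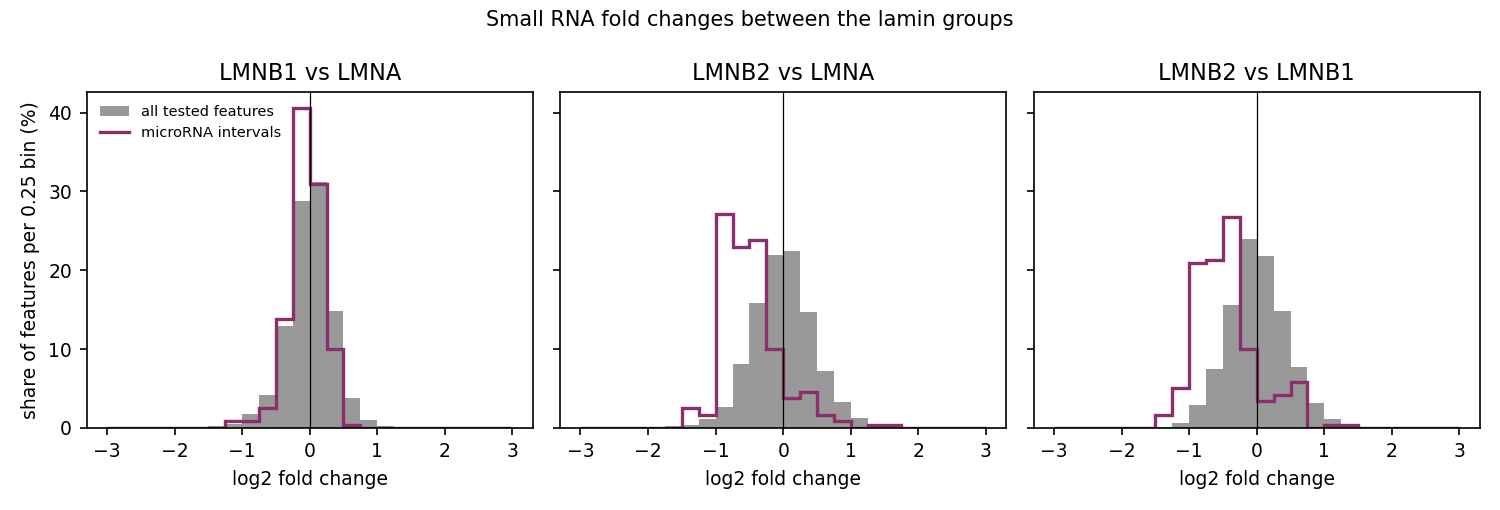
Distribution of small RNA log2 fold changes between the lamin groups, as the share of features per bin, for the 239 tested microRNA rows (line) and all 33893 tested features (grey). The microRNA rows centre near 0 for LMNB1 against LMNA, with a median of -0.05, and lie to the left for LMNB2 against LMNA (-0.54) and against LMNB1 (-0.50).

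MIR92B was lower in LMNB2 than in each of the other groups. Its hairpin row (chr1:155195152-155195297, + strand) lies in THBS3-AS1, a long non-coding RNA, and the row of its arm miR-92b-3p, whose sequence is printed above, had the same values. The row had 4.96, 3.84 and 3.77 CPM with eGFP, 3.32, 4.38 and 4.49 with LMNA, 3.97, 3.48 and 3.55 with LMNB1, and 2.5, 1.91 and 1.88 with LMNB2, from 265 to 768 counts. The LMNB2 libraries did not overlap any other group. The log2 fold change was -0.99 ± 0.20 against GFP (SE, adjusted p = 0.022), -0.95 ± 0.20 against LMNA (0.021) and -0.80 ± 0.20 against LMNB1 (0.044) in edgeR's quasi-likelihood test, adjusted by Benjamini-Hochberg. Unlike most loci, MIR92B was not high in GFP replicate 3, and without that library the fold change against GFP was -1.02. Over 21 fits the value against GFP ran from -1.10 to -0.72, and the adjusted p was under 0.05 in 16 of them. It was under 0.05 in 15 of 21 fits against LMNA and in 9 of 21 against LMNB1, where it reached 0.44. With the replicate number as a block the call against LMNB1 was lost and that against LMNA was kept. Against GFP it rose to 0.051, 0.12 and 0.11 without LMNB2 replicate 1, 2 and 3, and to 0.25 with scaling by total counts.

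MIR744, the second most abundant locus after MIR615, was lower in LMNB2 than in GFP. The hairpin row (chr17:12081874-12082021, + strand) lies in MAP2K4, a kinase gene. It had 51.2, 51.1 and 83.5 CPM with eGFP, 54.3, 53.8 and 54 with LMNA, 44.3, 49.3 and 52.6 with LMNB1, and 30.4, 30.8 and 33.4 with LMNB2. All LMNB2 libraries were lower than the other 9. The log2 fold change against GFP was -0.97 ± 0.23 (adjusted p = 0.034). Against LMNA it was -0.78 ± 0.23 and against LMNB1 -0.63 ± 0.23, with adjusted p of 0.090 and 0.18 in edgeR's test. Leaving out GFP replicate 3 gave adjusted p-values of 0.027, 0.0047 and 0.017 in the same order, with fold changes of -0.65, -0.80 and -0.64. Over 21 fits the adjusted p against GFP was under 0.05 in 11 and reached 0.24.

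MIR505 was lower in LMNB2 than in GFP and LMNA. The hairpin row had 0.515, 1.08 and 1.44 CPM with eGFP, 1.03, 1.35 and 0.825 with LMNA, 0.948, 0.857 and 0.841 with LMNB1, and 0.464, 0.441 and 0.377 with LMNB2. LMNB2 lay below every other library, by a small margin from GFP replicate 1. The fold changes were -1.23 ± 0.30 against GFP (adjusted p = 0.043) and -1.29 ± 0.30 against LMNA (0.040) by edgeR's quasi-likelihood test, and -1.02 ± 0.30 against LMNB1 (0.099). When GFP replicate 3 was left out the fold change against GFP was -0.84, and the adjusted p was 0.072, 0.0048 and 0.016 in the same order. Over 21 fits the adjusted p was under 0.05 in 7 against GFP and in 8 against LMNA. Of the 12 fits without 1 library, 3 kept the call against GFP: those that dropped the first GFP library (0.0025) and the second and the third of LMNA (0.047 and 0.039). With the replicate number as a block the adjusted p against LMNA was 0.060.

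MIR16-1 and MIR30B were called lower in LMNB2 than in GFP, and both calls were lost without GFP replicate 3. The arm row of MIR16-1 (chr13:50049003-50049073, - strand, in DLEU2, the host transcript of the MIR15A and MIR16-1 pair) had 0.962, 0.588 and 1.23 CPM with eGFP, 0.709, 0.794 and 0.684 with LMNA, 0.598, 0.624 and 0.893 with LMNB1, and 0.458, 0.512 and 0.519 with LMNB2. The fold change against GFP was -0.89 ± 0.23 (adjusted p = 0.041), the hairpin row around it had -0.74 and 0.077, and the arm row without GFP replicate 3 had -0.58 and 0.096. MIR16-2 on chromosome 3 encodes the same miR-16-5p, and reads of that strand cannot be assigned to a locus from the sequence alone. MIR30B (chr8:134800495-134800632, - strand, in ZFAT) had 0.163, 0.25 and 0.496 CPM in GFP and 0.0965, 0.096 and 0.114 in LMNB2, from 15 to 88 counts per library over all groups. Its fold change was -1.50 ± 0.40 (adjusted p = 0.047), and -0.90 (0.086) without GFP replicate 3. Both sets of LMNB2 libraries lay below all GFP libraries. Of the 12 fits without 1 library, MIR16-1 kept its call without GFP replicate 2 (0.014) or LMNA replicate 3 (0.047), and MIR30B without GFP replicate 1 (-1.79, 0.013) or LMNA replicate 3 (0.030).

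MIR12136 lies in a stretch of chromosome 1 that copies mitochondrial DNA. Its hairpin row (chr1:632590-632710, - strand) overlaps the end of MTCO1P12, a pseudogene of the mitochondrial cytochrome oxidase gene. The arm row had 2.7, 1.98 and 4.08 CPM with eGFP, 2.15, 1.66 and 2.13 with LMNA, 1.8, 1.79 and 1.97 with LMNB1, and 1.51, 1.32 and 1.39 with LMNB2. LMNB2 lay below all other libraries, with LMNA replicate 2 the nearest. The fold changes of the arm and the hairpin row against GFP were -1.05 ± 0.22 (adjusted p = 0.023) and -0.87 ± 0.20 (0.032), and without GFP replicate 3 they were -0.68 (0.018) and -0.58 (0.033) by edgeR's quasi-likelihood test. The mitochondrial tRNA row MT-TS1 had a mean of 4.29 CPM in GFP and 2.50 in LMNB2 (-0.78 ± 0.21, adjusted p = 0.058), which did not pass, and MT-TD passed (-0.87 ± 0.20, 0.034). The mitochondrial share of all small RNA counts was 0.665%, 0.775% and 1.29% with eGFP and 1.03%, 0.911% and 1.05% with LMNB2, inside the range of GFP. The part of mitochondrial reads in the MIR12136 counts was not tested.

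MIR5088 and MIR3651 were the loci called higher in LMNB2. MIR5088 (chr19:49682092-49682220, + strand, in the arginine methyltransferase gene PRMT1) had few reads: its arm row had 1, 5 and 7 counts with eGFP, 3, 5 and 7 with LMNA, 2, 6 and 9 with LMNB1, and 15, 19 and 18 with LMNB2. The LMNB2 libraries lay above all others, but both of its tested rows passed the count filter only through LMNB2, so a difference was built into their being tested. The arm row's fold changes were 1.56 ± 0.47 against GFP (adjusted p = 0.040), 1.50 ± 0.46 against LMNA (0.046) and 1.43 ± 0.44 against LMNB1 (0.0498) by edgeR's quasi-likelihood test, and without GFP replicate 3 they were 1.81 (0.021), 1.49 (0.018) and 1.42 (0.020). Over 20 fits the arm row's adjusted p was under 0.05 in 7 against GFP, 8 against LMNA and 6 against LMNB1. MIR3651 (chr9:92292433-92292572, - strand) overlaps SNORA84, an H/ACA small nucleolar RNA in an intron of IARS1. Its hairpin row had 1.07, 0.904 and 0.873 CPM with eGFP, 1.09, 1.08 and 1.15 with LMNA, 0.888, 0.887 and 0.963 with LMNB1, and 1.46, 1.36 and 1.36 with LMNB2. LMNB2 was above every other library, and against LMNB1 the fold change was 0.60 ± 0.15 (adjusted p = 0.038). Leaving out GFP replicate 3 gave 0.59 (0.0086). Over 21 fits the adjusted p of this hairpin row against LMNB1 was under 0.05 in 9 and reached 0.35. The SNORA84 row, which shares reads with it, gave 0.59 ± 0.15 and 0.041.

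**Figure D3:**
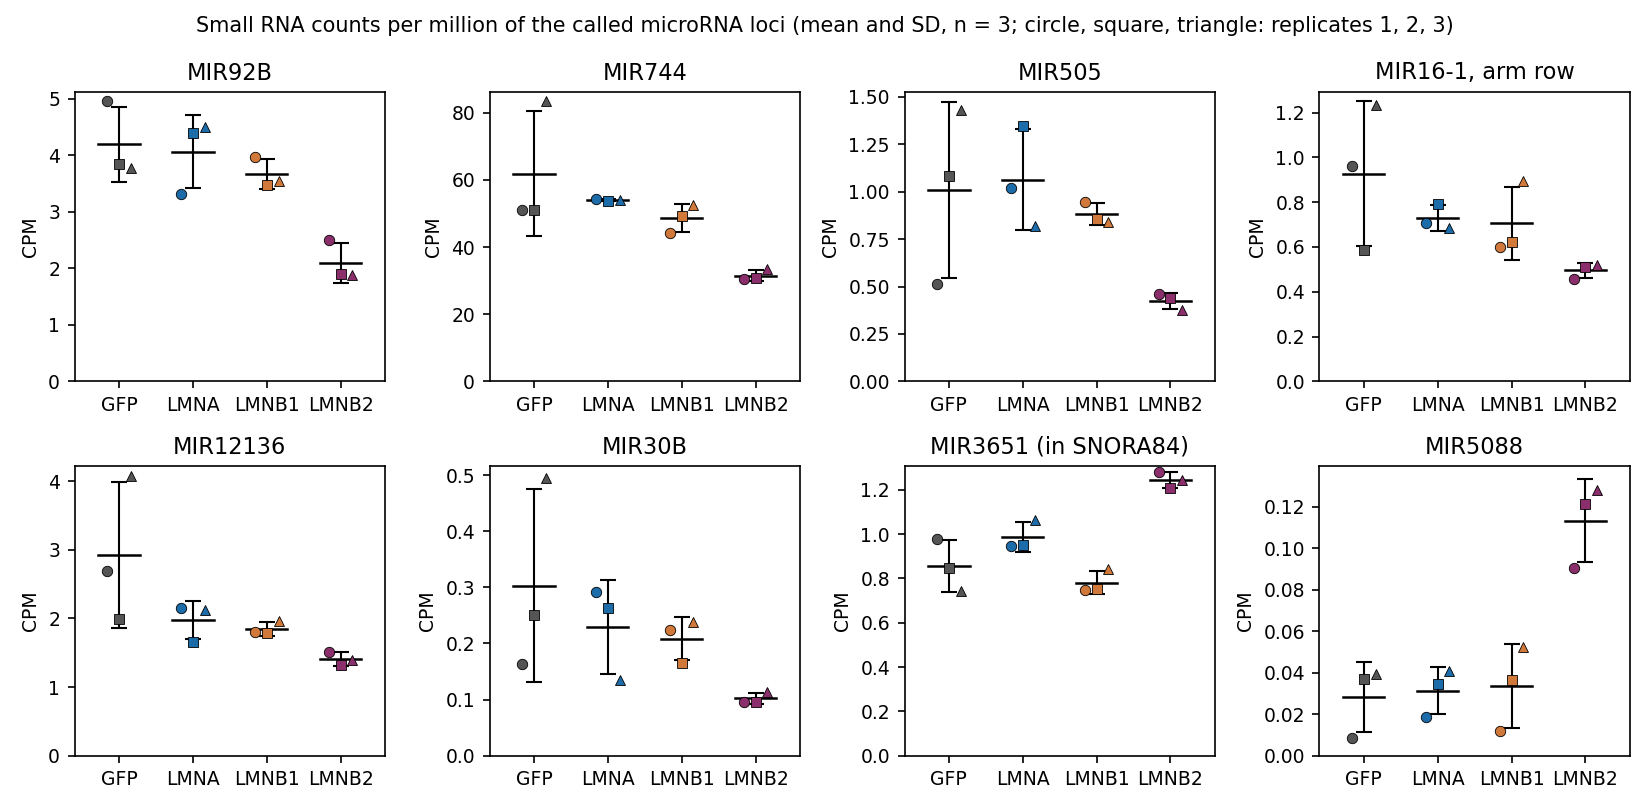
Small RNA CPM of the 8 loci with a called row, 1 panel each, with each library as a point (circle, square and triangle for replicates 1, 2 and 3) and the mean ± SD of a group's 3 libraries. In 6 panels the LMNB2 libraries are the lowest, from 1.88 to 2.5 CPM for MIR92B, and in those of MIR3651 and MIR5088 they are the highest.

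The intervals that overlap snoRNA or rRNA features had fold changes of both signs in LMNB2. Of their 20 tested rows at 11 loci, 12 had a positive fold change in LMNB2 against GFP (median 0.09), 9 against LMNA (median -0.21) and 12 against LMNB1 (median 0.34), where the 2 rows of MIR3651 were called higher. Without GFP replicate 3 the medians were 0.50, -0.23 and 0.33. In that fit 4, 2 and 8 rows were called higher, as were 3.97%, 3.26% and 3.63% of all features. In the same order, with all libraries, the medians were -0.91, -0.57 and -0.53 for the 121 rows that overlap a long non-coding RNA, and -0.83, -0.55 and -0.57 for the 77 rows that overlap no other row. The medians of these classes against GFP were -0.20 and -0.06 without GFP replicate 3. The difference between these classes was not tested. The 21 rows that overlap predicted signal recognition particle RNA rows, MIR182 and MIR183 among them, had -1.06, -0.62 and -0.73, with a negative fold change in all 21 against GFP and against LMNA. Their median against GFP was -0.39 without GFP replicate 3, with 15 of 21 negative. In a list of microRNAs in or like other structured RNAs, 15 of 18 rows were tested and their medians were 0.32, 0.32 and 0.57, and 0.56, 0.31 and 0.56 without GFP replicate 3.

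In that list MIR3651 was called higher than in LMNB1, as given above. The MIR3648-2 intervals, which lie in the transcribed spacer of ribosomal RNA repeats on chromosome 21, were not called with all libraries. One copy (chr21:8208448-8208677, + strand, in RNA45SN2) had 6.61, 5.65 and 3.69 CPM with eGFP, 6.12, 4.66 and 5.53 with LMNA, 6.67, 6.09 and 4.89 with LMNB1, and 9.15, 10.2 and 9.19 with LMNB2. LMNB2 lay above the other libraries, with 0.84 ± 0.23 against GFP (adjusted p = 0.056 by edgeR's quasi-likelihood test) and 0.68 (0.028) without GFP replicate 3. The second copy (chr21:8986974-8987203) had nearly the same values, and reads of the copies cannot be told apart. MIR1291, which overlaps SNORA2C, was the most abundant of the list and varied within groups, with 65.2, 17.9 and 21.5 CPM with eGFP, 82.6, 46 and 46.6 with LMNA, 23, 41.3 and 22.1 with LMNB1, and 49.5, 37.8 and 30.9 with LMNB2. The SNORA2C row had 0.17 ± 0.47 in LMNB2 against GFP and MIR1291 0.18 ± 0.47, and neither passed the test. MIR1291 had -0.04 without GFP replicate 3.

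With all libraries, the tested rows of the MIR15/16, MIR30 and MIR181 families had negative fold changes in LMNB2 with few calls, and against GFP those of MIR181 turned positive without GFP replicate 3. Beside each median, that of all features was -0.04 against GFP and -0.01 against LMNA. Of the MIR15/16 family 7 of 9 rows were tested. All 7 had a negative fold change against GFP (median -0.89, and -0.39 with 6 of 7 negative without GFP replicate 3), with 1 call, the arm row of MIR16-1. All 7 had their LMNB2 libraries below all LMNA libraries, as did 120 of the 239 tested microRNA rows and 13.5% of all features. MIR16-2 had 0.464, 1.03 and 2.85 CPM with eGFP, 1.02, 1.1 and 0.795 with LMNA, 0.972, 1 and 1.06 with LMNB1, and 0.675, 0.589 and 0.497 with LMNB2. MIR15A, its partner in seed, was not high in GFP replicate 3, with 0.928, 0.463 and 0.496 CPM in GFP and 0.422, 0.493 and 0.469 in LMNB2. The 3 tested rows of the MIR30 family, known among other roles from kidney and heart, had a median of -1.50 against GFP, with 1 call in MIR30B, and without GFP replicate 3 a median of -0.65 with no call. In that fit MIR30E had -0.65 and MIR30C1 -0.20. MIR30E had 0.833, 1.94 and 7.62 CPM with eGFP, 1.66, 1.82 and 1.51 with LMNA, 1.96, 1.19 and 1.64 with LMNB1, and 0.832, 0.934 and 0.796 with LMNB2, and MIR30C1, a neighbour in NFYC, had 0.584, 1.04 and 4.08, then 1.29, 1.33 and 1.05, 1.15, 0.936 and 1.36, and 0.754, 0.697 and 0.59. All 3 rows were called lower than in LMNA once GFP replicate 3 was left out, as were 2.41% of all features.

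The 6 rows of the MIR181 family, studied most in lymphocytes, had a median of -1.08 in LMNB2 against GFP with no call, and 0.07 without GFP replicate 3 (all 6 positive). Against LMNA their median was -0.79 with no call, and all 6 were called lower without GFP replicate 3 (2.41% of all features). MIR181D had 0.67, 1.18 and 5.03 CPM with eGFP, 1.67, 1.62 and 1.35 with LMNA, 1.56, 1.21 and 1.42 with LMNB1, and 0.886, 0.998 and 0.931 with LMNB2. MIR181B2 had 0.79, 1.29 and 4.44 CPM with eGFP, 2.12, 1.73 and 1.49 with LMNA, 1.67, 1.34 and 1.8 with LMNB1, and 1.01, 1.25 and 0.817 with LMNB2. Both loci lay lower in LMNB2 than in any LMNA or LMNB1 library and overlapped GFP. Of the widely expressed microRNAs 14 rows at 8 loci were tested, all 14 with a negative fold change in LMNB2 against GFP and no call (median -1.40, and -0.22 with 9 of 14 negative without GFP replicate 3). Against LMNB1 all 14 had their LMNB2 libraries below (median -0.80) with no call. Without GFP replicate 3, 4 were called (3.63% of all features higher, 2.37% lower). With all libraries, LMNB2 also lay below all LMNB1 libraries in 138 of the 239 tested microRNA rows and in 14.1% of all features. The 4 HOX-cluster rows, from MIR615 and MIR196A2, had a median of -0.98 against GFP and no call, and -0.58 without GFP replicate 3.

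MicroRNAs reported to target lamin messenger RNAs were present at low level. MIR9-1 and MIR9-2 encode miR-9, reported to repress the lamin A precursor, and MIR23B encodes miR-23b, reported to target lamin B1. MIR9-1 had 0.241, 0.39 and 1.43 CPM with eGFP, 0.317, 0.394 and 0.211 with LMNA, 0.441, 0.208 and 0.418 with LMNB1, and 0.193, 0.166 and 0.163 with LMNB2. MIR23B had 0.155, 0.257 and 1.16 CPM with eGFP, 0.392, 0.283 and 0.292 with LMNA, 0.429, 0.367 and 0.377 with LMNB1, and 0.271, 0.281 and 0.213 with LMNB2. MIR9-1 was lowest in LMNB2 and MIR23B inside the range of GFP. Their 4 tested rows had medians of -1.37 against GFP and -0.47 against LMNA, with no call in LMNA, LMNB1 or LMNB2 against GFP. Without GFP replicate 3 the median against GFP was -0.18, and 2 rows were called lower than in LMNB1 (2.37% of all features). The 2 rows of MIR34A, a p53 target, ran from 0.0497 to 0.428 CPM with no call. Both rows of MIR34A were called in the joint test without GFP replicate 3 (adjusted p = 0.034 and 0.029 by edgeR's test). The fold changes of MIR34A against GFP then turned from -0.29 to 1.24 in LMNA and from -0.30 to 1.22 in LMNB1, neither of them called.

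The intervals of several listed clusters and families were at or near 0, though MIR rows of several types, which may hold other members, were not counted. Of 61 rows of the placental cluster on chromosome 19, 45 had no count, none was tested and the highest mean was 0.83 counts, in MIR516B1. Of 26 rows of the imprinted cluster on chromosome 14, 24 had no count, and only the 2 rows of MIR345 were tested (median -1.01 in LMNB2 against GFP, 0.06 without GFP replicate 3, no call). The 4 MIR200 family rows, markers of epithelium, averaged at most 1.25 counts, in MIR141. The 2 rows of MIR19B2, of the MIR106A-363 cluster, averaged at most 4.08 counts and were not tested, and the list of the cluster that starts with MIR371A held no interval.

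Of the 22 rows of mirtrons and other Drosha-independent microRNAs 6 were tested, with a median of -0.25 in LMNB2 against GFP and no call, and -0.30 without GFP replicate 3. MIR877, a mirtron of ABCF1, was the most abundant, and the row of its 3p arm was among those with the lowest p in LMNB1 against GFP. The hairpin is printed with the 5p and 3p mature arms in capitals, since the rows of the arms gave different values.
MIR877: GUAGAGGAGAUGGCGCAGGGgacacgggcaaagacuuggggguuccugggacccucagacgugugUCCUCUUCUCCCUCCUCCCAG
The row of the 3p arm (chr6:30584372-30584442, + strand) had 0.816, 1.01 and 0.546 CPM with eGFP, 1.03, 0.946 and 1.25 with LMNA, 1.25, 2.11 and 1.68 with LMNB1, and 1.22, 1.25 and 1.23 with LMNB2. LMNB1 and LMNB2 lay above all GFP libraries. The fold changes against GFP were 0.44 ± 0.22 in LMNA, 1.08 ± 0.22 in LMNB1 and 0.64 ± 0.22 in LMNB2, with adjusted p of 0.90, 0.21 and 0.13 by edgeR's quasi-likelihood test. For LMNB1 the fit with no count filter gave an adjusted p of 7.29e-05, the only 1 of 21 fits under 0.05, DESeq2 gave 0.051, and without GFP replicate 3 the fold change was 0.92 (0.059). The hairpin row differed less, at 0.37 ± 0.22 in LMNB1.

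The share of MIR877 hairpin counts that reached the 3p row was 37.7% ± 2.20 in GFP (SD, n = 3), 47.1% ± 7.49 in LMNA, 61.2% ± 3.67 in LMNB1 and 63.7% ± 4.28 in LMNB2, from 247 to 530 hairpin counts per library. No LMNB1 or LMNB2 library overlapped GFP. With 3 libraries against 3, a two-sided exact permutation test cannot go below 0.1, and it gave 0.2, 0.1 and 0.1 for LMNA, LMNB1 and LMNB2. Over the 18 comparisons of 6 loci with both arms measured, the Benjamini-Hochberg adjusted values were 0.72, 0.45 and 0.45. The other loci of that set include MIR98, whose 3p share was 12.5% ± 9.06 in GFP and 18.1% ± 6.36 in LMNB2, within the spread. The rows of the arms, each with 25 bp added, overlap, and at least 97.2% of hairpin counts reached the 5p row in each library. Most 3p counts therefore came from fragments counted in both rows.

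**Figure D4:**
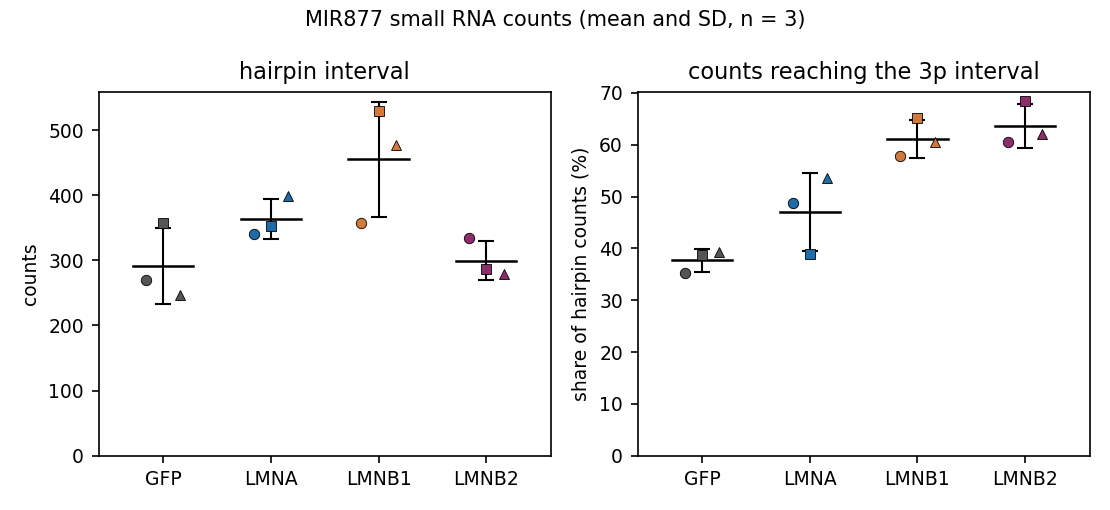
Counts in the MIR877 hairpin interval and the percent of them that reach the 3p interval, per library, with the mean ± SD of 3 libraries in each group (circle, square and triangle for replicates 1, 2 and 3). The shares of GFP lie between 35.2% and 39.3% and those of LMNB1 and LMNB2 between 57.8% and 68.5%.

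Open chromatin at the microRNA loci was measured in windows that extend each interval on both sides. After the count filter 1124 windows at 586 loci were tested among 163786, and none was called in LMNA, LMNB1 or LMNB2 against GFP or in the joint test by edgeR's quasi-likelihood test (0.000611%, 0.00305%, 0.00244% and 0.0421% of all windows were). Unadjusted p-values under 0.05 were found for 54, 50, 57 and 40 windows, and DESeq2 called 0, 1, 3 and 3. In LMNA, LMNB1 and LMNB2 against GFP, DESeq2 called 59, 62 and 116 of all windows. The medians were 0.01, 0.03 and -0.03 in LMNA, LMNB1 and LMNB2. Leaving out any 1 of the 12 libraries gave 0 calls as well.

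Most microRNA windows had less than 2 times the density of their surroundings. The median density was 0.195 CPM per kb, 1.22 times that of the flanks of 50 kb, and 185 loci reached 2 or more times and 91 reached 5 or more times the flank density. Of the 105 loci also tested in small RNA 38.1% reached 2 times the flank density, and of the other 481 loci 30.1%. Across those 105 loci, which share libraries and annotation, Spearman's rho between small RNA CPM and ATAC density was 0.21 as a description, and rho between the fold changes of the assays was 0.01, -0.17 and -0.05 in LMNA, LMNB1 and LMNB2. MIR744, lower in LMNB2 in small RNA, had 0.133, 0.106 and 0.0826 ATAC CPM with eGFP, 0.035, 0.0512 and 0.0317 with LMNA, 0.0898, 0.115 and 0.059 with LMNB1, and 0.0749, 0.0524 and 0.028 with LMNB2. LMNA and LMNB2 lay below GFP, at -1.29 ± 0.49 (adjusted p = 0.89) and -0.92 ± 0.46 (0.86), and no difference passed the test at this depth.

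The highest ATAC counts came from the mitochondrial-like stretch of chromosome 1. MIR6723 (chr1:632300-632438, inside MTCO1P12) had 405, 508 and 499 ATAC CPM with eGFP, 365, 472 and 468 with LMNA, 348, 343 and 283 with LMNB1, and 264, 309 and 258 with LMNB2. MIR12136 next to it had 164, 240 and 216 with eGFP, 149, 209 and 197 with LMNA, 148, 148 and 117 with LMNB1, and 107, 141 and 94.9 with LMNB2. All LMNB1 and LMNB2 libraries lay below GFP at both loci. For MIR6723 the fold changes were -0.54 ± 0.14 in LMNB1 and -0.76 ± 0.14 in LMNB2, with adjusted p of 0.98 and 0.75 by edgeR's quasi-likelihood test and 0.0239 and 9.7e-05 by DESeq2. With scaling by total counts, which moved the median of all windows to 0.19 in LMNB1 and 0.11 in LMNB2, they were -0.34 (0.0449) and -0.65 (2.88e-09). The windows DESeq2 called were those of MIR6723 and MIR12136. The mitochondrial share of ATAC counts followed the same order of groups, at 39.9%, 47.5% and 47.0% with eGFP, 39.4%, 44.1% and 39.8% with LMNA, 33.9%, 32.8% and 34.1% with LMNB1, and 25.2%, 30.7% and 24.5% with LMNB2. Its part in the values of these windows was not tested.

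**Figure D5:**
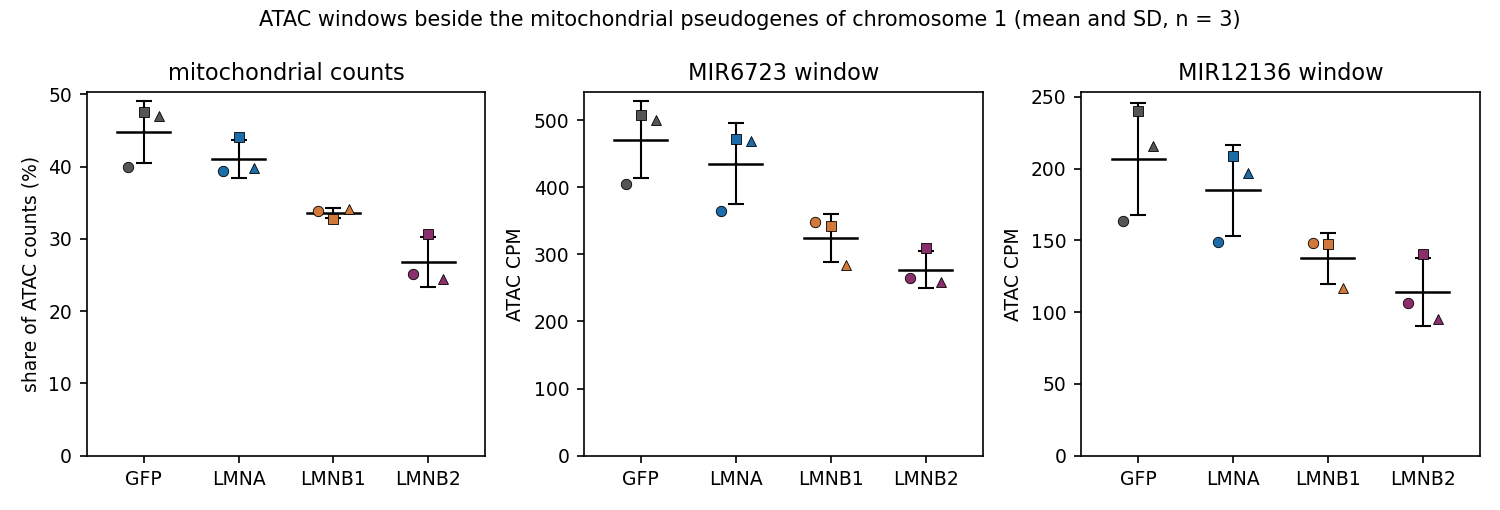
Share of mitochondrial ATAC counts and ATAC CPM of the windows of MIR6723 and MIR12136 on chromosome 1, per library, with the mean ± SD of 3 libraries in each group (circle, square and triangle for replicates 1, 2 and 3). All 3 panels are highest in GFP and LMNA and lowest in LMNB2, with 24.5% to 30.7% mitochondrial counts.

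The MIR6724 copies on chromosome 21 were also dense, at 31.6 to 36.1 CPM per kb, whose LMNB2 fold changes ran from -0.05 to 0.00. MIR1973, in the mitochondrial-like pseudogene MTRNR2L12 on chromosome 3, had 8.93, 12.1 and 11.4 ATAC CPM with eGFP, 7.52, 10.6 and 16.5 with LMNA, 8.9, 9.51 and 6.09 with LMNB1, and 7.24, 6.55 and 5.72 with LMNB2. LMNB2 lay below GFP at -0.73 ± 0.30 (adjusted p = 0.86), and it was called when only the 6 libraries compared were fitted. Among the windows with the lowest p, MIR5047 in DDX5 had 1.26 ± 0.43 in LMNA (adjusted p = 0.79), from 0.0379 to 0.145 CPM over all libraries. MIR4258 in CKS1B had -0.47 ± 0.14 in LMNB1 (adjusted p = 0.98), with 0.814, 0.874 and 0.826 CPM in GFP and 0.625, 0.643 and 0.531 in LMNB1, which did not overlap.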

How the data were processed

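Small RNA and ATAC-seq were each measured in 12 HEK293 libraries, 3 per group. The authors deposited raw read counts per annotated feature, whole numbers that were not normalized per the file headers and values. The genome build is GRCh38 per the submitters' processing notes. The aligner, the counter, the use of strand and the treatment of multi-mapping and duplicate reads are not given in the sources used here. Counts are of reads, not molecules. The members and lists were chosen with earlier results of these data known.

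Counts of all features were fitted over the 12 libraries of an assay with edgeR 4.0.16 in R 4.3.3 (filterByExpr, TMM scaling, robust quasi-likelihood F test, prior count 2), and p-values were adjusted by Benjamini-Hochberg over the whole table, with a threshold of 0.05. Errors of fold changes are standard errors (SE). The rule for named loci took called rows, the 20 rows highest in CPM, up to 4 measured members of each list, the rows with the lowest p in each lamin against GFP, and for ATAC-seq also the densest windows; only some of these are described. The code was tested on simulated data. The labels do not say that a replicate number marks a shared culture or day. In small RNA the deviations of same-numbered libraries from their group means correlated over 0.1 in all 3 pairs for LMNA with GFP (0.101 to 0.362) and for LMNA with LMNB2 (0.117 to 0.206). They did not in all 3 for any other 2 groups or in ATAC-seq. The main fits used group means without pairing for all groups, and the replicate number entered only in the alternative fit with a block. Alternatives were another normalization (DESeq2 1.42.0, total counts), no count filter, DESeq2's test, a replicate block, only the libraries compared, other thresholds, and each library left out. Gene hosts are RefSeq gene spans, so exon and intron were not resolved. With 3 libraries a group and counts near 10 the precision is low, and DESeq2 gave MIR5088 no adjusted p against GFP or LMNA.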

Additional observations from a re-analysis of the deposited data

How the results depend on the processing

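Without GFP replicate 3 or any other single library, the number of microRNA rows called ranged from 0 to 14 for LMNA against GFP, 0 to 2 for LMNB1 against GFP, 0 to 70 for LMNB2 against GFP, 0 to 59 for LMNB2 against LMNA, 0 to 58 for LMNB2 against LMNB1 and 0 to 77 for the joint test. With total-count scaling the last 4 counts were 0, 0, 0 and 0. All features then had 282, 314 and 61 calls for LMNB2 against GFP, LMNA and LMNB1. With no count filter the count was 3 for LMNB1 against GFP (127 of all features). It was 66, 20 and 12 for LMNB2 against GFP, LMNA and LMNB1 (1745, 1232 and 896 of all features), and 55 for the joint test. With a mean of 10 or more counts the joint test gave 2. For the joint-test counts under the alternatives in this section, the matching counts over all features are not given. They are therefore not read as a result about the microRNA rows. DESeq2 gave 33 for LMNB2 against GFP (953 of all features) and 17 for the joint test. With only the libraries compared the LMNB2 counts were 0, 72 and 112 (21, 3001 and 4638 of all features). Without lncRNA rows they were 1 against LMNA (89 of all features), 2 against LMNB1 (78) and 2 for the joint test. At an adjusted p under 0.01 they were 0 in these 4 tests, and with a fold change of 1 or more on the log2 scale required they were 6 against GFP and 1 against LMNB1. In ATAC-seq, total-count scaling gave 1 in LMNB1, 1 in LMNB2 (110 and 99 of all windows) and 1 in the joint test. DESeq2 gave 1, 3 and 3 (62 and 116 of all windows in LMNB1 and LMNB2). Only the libraries compared gave 2 in LMNB2 (67 of all windows). With the replicate number as a block the count was 3 for LMNB2 against LMNB1 (577 of all features), all higher. MIR92B had an adjusted p of 0.064 in that contrast by edgeR's test. The joint test with the block gave 2, and no other count moved by over 1.5 times. Over all pairs of groups, correlations of same-numbered deviations ran from -0.13 to 0.36 in small RNA, with 10 of 18 over 0.1 and 8 of 12 libraries correlated best with their own number, and from -0.22 to 0.52 in ATAC-seq, with 6 of 18 and 7 of 12. The median of the microRNA rows stayed below 0 in all 20 alternatives for LMNB2 against GFP (-1.11 to -0.17), LMNA (-0.62 to -0.22) and LMNB1 (-0.55 to -0.12), and in 19 of 20 for LMNA and LMNB1 against GFP. These alternatives were also compared for the called rows and for the rows with the lowest p in LMNA and LMNB1 against GFP. Of their values, with the main fits counted among them, 434 kept their call or lack of it, 1 gained and 245 lost the call. None changed sign. Only rows called in the main fit could lose a call. The 434 include the main fits and rows not called in them, so they do not measure how often a call held. Other named loci, MIR34A and MIR1291 among them, did change sign against GFP without GFP replicate 3. The causes of these changes were not tested.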
